A study of Saccharomyces cerevisiae with 94 samples.

Results

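Heat shock proteins are the molecular chaperones that cells make in larger amounts when proteins misfold. In budding yeast, Hsp70 (the Ssa proteins) binds exposed hydrophobic stretches of client proteins with the help of J-proteins such as Sis1, Hsp90 (Hsp82 and Hsc82) matures kinases and receptors, Hsp104 pulls proteins out of aggregates, and the small heat shock proteins Hsp26 and Hsp42 hold aggregating proteins in a form that can be refolded. Their genes are driven by Hsf1, which binds heat shock elements made of repeated GAA and TTC units, and several of them also by the stress factors Msn2 and Msn4, which bind the stress response element AGGGG. The 10 genes described here, of 6444 in the table, were chosen by name as the main cytosolic heat shock genes: SSA1 (YAL005C), SSA2 (YLL024C), SSA3 (YBL075C) and SSA4 (YER103W) for Hsp70, HSP82 (YPL240C) and HSC82 (YMR186W) for Hsp90, the disaggregase gene HSP104 (YLL026W), the small heat shock protein genes HSP26 (YBR072W) and HSP42 (YDR171W), and the J-protein gene SIS1 (YNL007C). The choice was made with results of these libraries known and no measured value is recorded for it, so the levels and tests of these genes are a description of the chosen genes and not independent evidence.

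RNA-seq was performed on 94 libraries from 2 haploid MATa strains of the W303 background (with the alleles rad5-535, can1-100, leu2-3, 112, trp1-1, his3-11, 15, ura3-1 and ade2-1). The SSDDCS strain carries extra copies of 6 limiting replication initiation factors under the galactose-inducible GAL1-10 promoter, with Cdc45 and Sld7 at one locus (leu2::Sld7-PGAL1-10-Cdc45::LEU2), the alleles Dbf4-A and SLD3-A at another (his3, marked with HIS3) and Dpb11 and Sld2 at the last (trp1::Sld2-PGAL1-10-Dpb11::TRP1), in an sml1Δ::HphNT background (the marker as the labels give it, which the study's strain list names HphMX), and the control is sml1Δ::URA3, so both strains lack SML1 and differ in the markers they carry. Cells grown in raffinose were arrested in G1 with alpha factor, given galactose in the arrest, sampled (G1) and released into galactose medium at 30 °C, with samples at 5, 10, 15, 20, 25, 30, 35, 40, 45, 50 and 60 min. Each strain had 4 replicate cultures, with libraries of 3 of them used at 25 min. Values are normalised read counts, which are reads per gene divided by a size factor for the library, and strains were compared on the log2(value + 1) scale with limma over all tested genes, a gene being called at an adjusted p under 0.01.

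Libraries held 8119387 to 21677438 reads. Replicate 1 was sequenced more deeply in both strains, with a median of 15435433 reads in SSDDCS and 20480360 in sml1Δ. All 6 over-expressed factors were higher in every SSDDCS library than in every sml1Δ library at each of the 12 time points. Over all tested genes, 16 of the 94 libraries were closer to the next or previous time point of the other cultures of their strain than to their own, and none was further away. Among them, sml1Δ replicate 4 was closest to 60 min at 50 min and to 50 min at 60 min. SSDDCS replicate 2 was closest to the previous time point at 35, 40, 45 and 50 min, and sml1Δ replicate 3 at 15, 20, 25 and 40 min. SSDDCS replicate 3 was closest to the next time point at 30, 35 and 40 min. RNA from a population gives an average, so fewer cells expressing a gene and less RNA in each cell cannot be told apart.

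The stretches upstream of the members are shown first because they hold the elements by which the family is known. In the 500 bases before each start codon, 3 consecutive heat shock units (GAANNTTCNNGAA or TTCNNGAANNTTC, N being any base) were present in 5 of the 10 members and in 1.49% of 5843 genes with such a window. Pairs of units (GAANNTTC or TTCNNGAA), which every run of 3 also contains, were present in 9 of 10 members and in 35.3% of genes. The stress response element (AGGGG or CCCCT) was present in 6 of 10 members and in 34.0% of genes. The longest run of each member, in capitals, is given with 15 bases on each side, from the R64 reference genome and written in the direction of transcription.
SIS1 (chrXIV:619872-619924, minus strand): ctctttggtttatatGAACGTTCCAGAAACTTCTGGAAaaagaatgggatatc
SSA1 (chrI:141763-141810, minus strand): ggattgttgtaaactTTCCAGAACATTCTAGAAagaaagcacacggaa
HSP104 (chrXII:88306-88353, plus strand): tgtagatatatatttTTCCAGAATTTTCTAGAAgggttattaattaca
HSP42 (chrIV:806363-806410, plus strand): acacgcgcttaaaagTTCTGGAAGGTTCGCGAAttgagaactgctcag
SSA2 (chrXII:97691-97733, minus strand): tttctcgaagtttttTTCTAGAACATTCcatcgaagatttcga
SSA4 (chrV:364321-364358, plus strand): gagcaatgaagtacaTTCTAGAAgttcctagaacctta
HSP82 (chrXVI:98838-98875, minus strand): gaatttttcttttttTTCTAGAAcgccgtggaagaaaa
HSC82 (chrXIII:632123-632160, plus strand): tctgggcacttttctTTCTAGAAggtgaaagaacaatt
HSP26 (chrII:381661-381698, plus strand): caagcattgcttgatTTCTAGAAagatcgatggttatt
SIS1 held a run of 5 units, SSA1, HSP104 and HSP42 runs of 4, SSA2 a run of 3, and SSA4, HSP82, HSC82 and HSP26 runs of 2. The first base in capitals lay 217 bases (HSC82) to 364 bases (SSA1) before the start codon. SSA3 had no match to any of these letters in its window. AGGGG matches were found for SSA1, SSA4, HSP82, HSP104, HSP26 and HSP42. A match is a description of the sequence, and binding was not measured in these libraries.

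The genes lie on 8 chromosomes (R64 coordinates): SSA1 at chrI:139503-141431, SSA3 at chrII:84499-86448, HSP26 at chrII:382030-382674, HSP42 at chrIV:806621-807748, SSA4 at chrV:364589-366517, HSP104 at chrXII:88623-91349, SSA2 at chrXII:95566-97485, HSC82 at chrXIII:632355-634472, SIS1 at chrXIV:618507-619565 and HSP82 at chrXVI:96496-98625. The coding sequences of SSA1 and SSA2 are 96.4% identical, and 42.1% of the 50-base windows of SSA1 and 41.8% of those of SSA2 occur once in the genome, so the values of this pair cannot be fully separated. HSP82 and HSC82 are 91.7% identical, with 93.6% of the windows of each occurring once. For SSA3, SSA4, HSP104, HSP26, HSP42 and SIS1 all windows occur once. Among the 5844 genes of the table with a position, none overlaps a member.

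All 10 heat shock protein genes were called higher in SSDDCS than in sml1Δ at 30, 35, 40 and 45 min after release. With each time point fitted alone, the calls of HSC82 at 30, 40 and 45 min were lost (adjusted p = 0.0407, 0.0212 and 0.0334). Those of SSA2, HSP26 and SIS1 at 45 min were lost too (adjusted p = 0.0148, 0.0374 and 0.0142). Some calls were also lost without the libraries nearest to another time point, among them HSP26 at 35 and 45 min. At 5 and 10 min 0 of 10 were called, when 2 and 0 had an unadjusted p under 0.05 and edgeR and DESeq2 called 0, although 9 of 10 members at 5 min and 10 of 10 at 10 min had a higher log2 mean in SSDDCS. In G1 and in the 15 min sample 1 gene was called, and the count was 5 by 20 min, 7 by 25 min, 6 by 50 min and 3 by 60 min. Of all 6404 genes counted, 0.234% were called higher in G1, and 0.0937%, 0.125% and 1.72% in the samples of 5, 10 and 15 min. The share was 10.1%, 12.5% and 16.9% in those of 20, 25 and 30 min, then 14.6%, 10.6% and 8.07% in those of 35, 40 and 45 min, and 5.39% and 2.5% in those of 50 and 60 min. No member was called lower at any time point by limma, edgeR or DESeq2, and 0 of the 120 comparisons had a lower mean with an unadjusted p under 0.05. The median log2 difference of the members was 0.54 in G1, where it was -0.01 over all genes. It was 0.19 at 5 min, 0.09 at 10 min and 1.41 at 30 min, beside 0.00, -0.00 and -0.04 over all genes, and 0.65 at 60 min, beside -0.00.

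**Figure D1:**
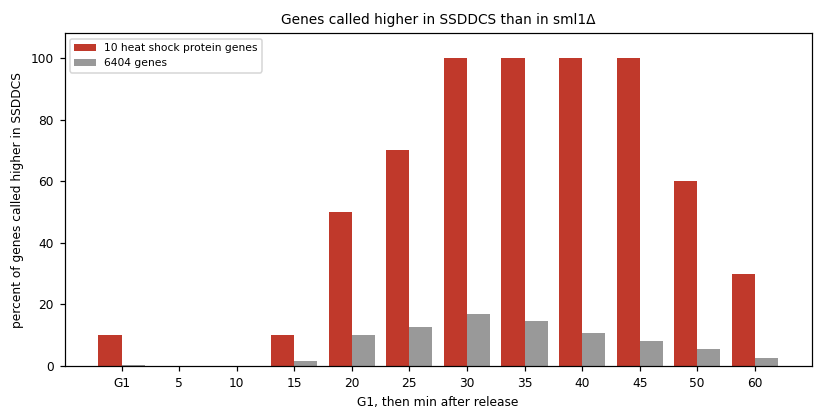
Percent of genes called higher in SSDDCS than in sml1Δ (limma, adjusted p under 0.01) in G1 and at each time after release, for the 10 heat shock protein genes (red) and for 6404 genes (grey). The red bars stand at 100% from 30 to 45 min, where the grey bars are between 8.07% and 16.9%.

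**Figure D2:**
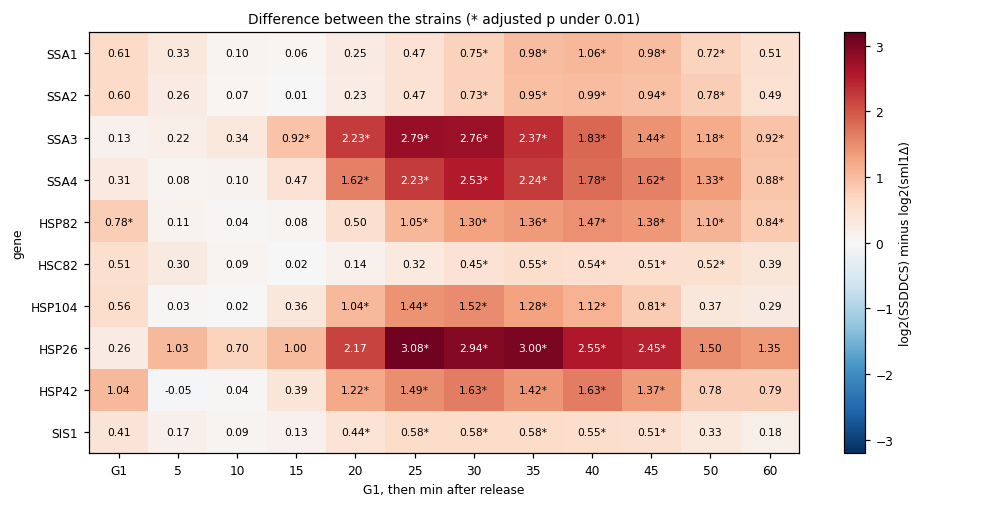
Log2 of SSDDCS minus log2 of sml1Δ for each gene (rows) in G1 and at each time in min (columns), from the limma fit, with an asterisk where the adjusted p was under 0.01. HSP26, SSA3 and SSA4 reach the largest differences, at 25 to 30 min, and HSC82 and SIS1 stay at or below 0.58.

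SSA3 and SSA4 encode the heat-inducible Hsp70 chaperones, and all of their SSDDCS libraries left the range of the control over several time points. SSA3 had 351, 329, 295 and 364 normalised reads in SSDDCS replicates 1 to 4 in G1, against 333, 354, 261 and 285 in sml1Δ, and the strains overlapped. At 30 min it had 1837, 2121, 1154 and 2147 in SSDDCS, against 276, 235, 244 and 286 in sml1Δ. Replicate 3 was the lowest SSDDCS library and was still above every control library. The log2 difference was 0.92 ± 0.18 (SE) at 15 min (adjusted p = 0.000195) and 2.79 ± 0.20 at 25 min (adjusted p = 4.33e-19). It was 2.76 ± 0.18 in the next sample and 0.92 ± 0.18 at 60 min (adjusted p = 0.000109). SSA3 was the first member called after release and was called at each of the 9 time points from 15 to 60 min. From 15 min onward every SSDDCS library exceeded 354, the highest SSA3 value of any of the 47 sml1Δ libraries at any time. With each time point fitted alone, the calls at 15 and 60 min had an adjusted p of 0.0349 and 0.0141 and were lost.

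SSA4 was called from 20 min onward. In G1 it had 716, 915, 711 and 732 normalised reads in SSDDCS and 632, 621, 643 and 575 in sml1Δ, and at 10 min it averaged 757 ± 161 in SSDDCS and 705 ± 131 in sml1Δ (n = 4 per strain, SD). At 30 min it had 3032, 3473, 1932 and 3203 in SSDDCS, against 462, 481, 494 and 533 in sml1Δ. The lowest SSDDCS library, replicate 3, was well above the highest control library. The log2 difference was 1.62 ± 0.21 at 20 min (adjusted p = 7.67e-09) and 2.53 ± 0.21 at 30 min (adjusted p = 3.39e-16), and was 0.88 ± 0.21 at 60 min (adjusted p = 0.00278). Every SSDDCS library from 20 to 35 min exceeded 1134, the highest SSA4 value among the 47 sml1Δ libraries, which was replicate 1 at 5 min. The call at 60 min was lost in 4 of 8 fits that left out 1 culture (SSDDCS replicate 1 or 4, sml1Δ replicate 1 or 4), with an adjusted p of 0.0135 to 0.0453, and it was 0.0889 with that time point alone and 0.0159 without the libraries nearest to another time point. Within SSDDCS, SSA3 and SSA4 peaked together at 25 min and their 12 group means (log2 scale) correlated at r = 0.97, the highest of the 45 pairs of members in that strain, while in sml1Δ r was 0.41. The 12 means of a strain come from the same cultures.

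SSA1 and SSA2 encode the constitutive Hsp70 chaperones and are among the most abundant transcripts of the family. At 30 min SSA1 had 40346, 38465, 31033 and 36789 normalised reads in SSDDCS, against 19211, 25093, 19349.7 and 23830.4 in sml1Δ. SSA2 had 38186, 32652, 29044 and 33738 in SSDDCS, against 22038, 19937, 14690.1 and 25257 in sml1Δ. Neither gene overlapped between the strains. At 15 min both overlapped, SSA1 averaging 34004 ± 4010.0 in SSDDCS and 32662 ± 4368 in sml1Δ. The difference was largest at 40 min for both, where SSA1 had 39076, 29144, 26697 and 37368 in SSDDCS against 16633, 16442, 13725 and 15834 in sml1Δ, a log2 difference of 1.06 ± 0.16 (adjusted p = 2.27e-07), and SSA2 differed by 0.99 ± 0.17 (adjusted p = 4.23e-06). These values share reads between the copies to an extent that was not tested.

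**Figure D3:**
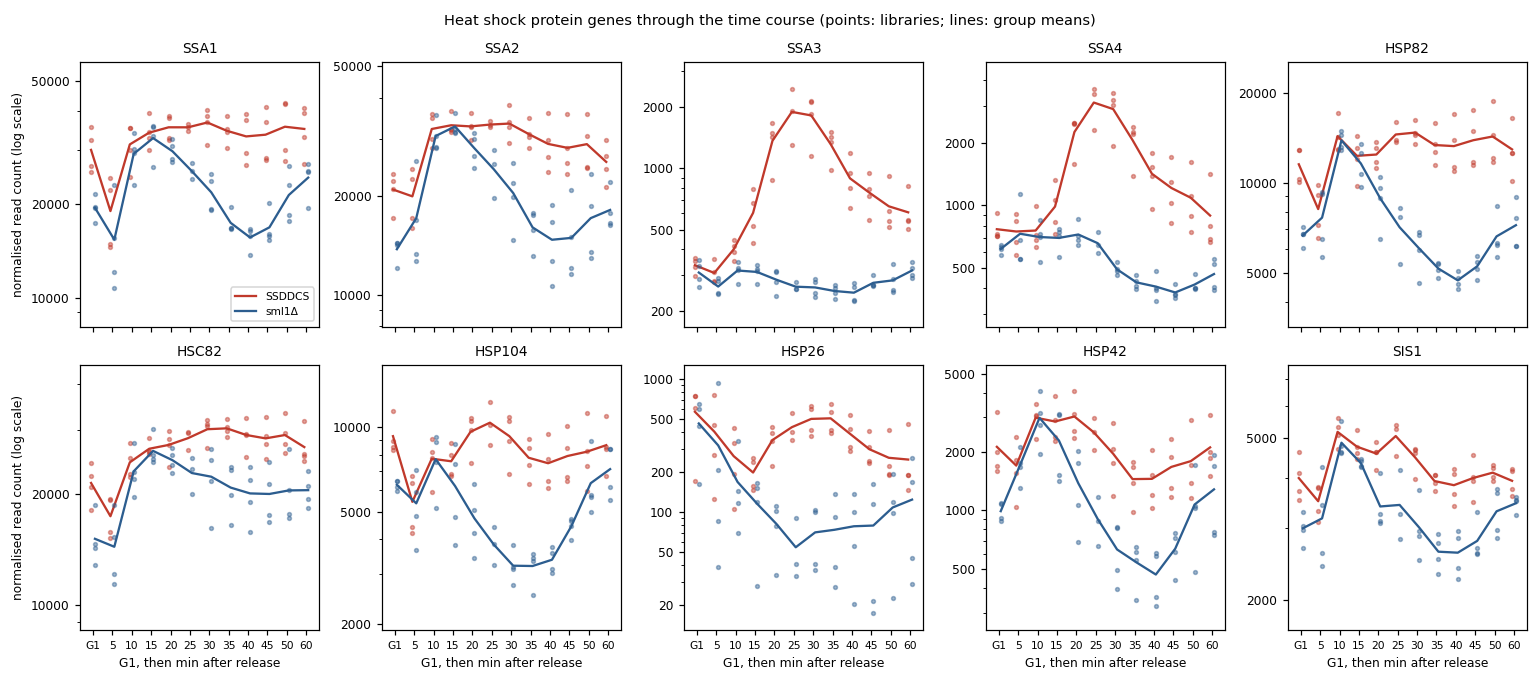
Normalised read count (log axis) of each member in G1 and at each time in min after release, for SSDDCS (red) and sml1Δ (blue), with points for libraries and lines for group means. SSA3 and SSA4 climb in SSDDCS to means of 1889 and 3129 at 25 min, while SSA1, SSA2, HSP82 and HSP42 are apart in G1, lie together at 10 min and are apart again at 30 min.

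HSP82, the heat-inducible Hsp90 gene, was the member already called in G1. It had 10272, 12921, 10086 and 12846 normalised reads in SSDDCS arrested cells, against 6040.4, 6759.5, 6768 and 7093 in sml1Δ arrested cells, a log2 difference of 0.78 ± 0.16 (adjusted p = 0.00106). The groups did not overlap. Without SSDDCS replicate 2 the difference was 0.73 and the call was lost (adjusted p = 0.0122). By 10 min the difference was 0.04 ± 0.16, with means of 14318 ± 1972 in SSDDCS and 13866 ± 975 in sml1Δ. It then had 14453, 14699.8, 13446 and 16273 at 30 min in SSDDCS, against 4641, 6858, 5969.8 and 6693 in sml1Δ, and 13858, 11299.9, 10925 and 16968 at 40 min in SSDDCS, against 4408, 4818, 4603 and 5055 in sml1Δ. At 40 min every SSDDCS library was above every control library, with the largest difference of the course, 1.47 ± 0.16 (adjusted p = 9.39e-12). HSP82 was still called at 60 min (0.84 ± 0.16, adjusted p = 9.73e-05), a call that was lost with the time point alone (adjusted p = 0.0370).

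HSC82, its constitutive copy, differed less. At 30 min HSC82 had 31981, 30660.5, 26734 and 31076 normalised reads in SSDDCS, against 24859, 21804, 16228 and 26519.5 in sml1Δ. The lowest SSDDCS library, replicate 3, was only just above the highest control library, replicate 4. The log2 difference was 0.45 ± 0.14 (adjusted p = 0.00514) and reached 0.55 ± 0.14 at 35 min (adjusted p = 0.00078). HSC82 was the 1 member whose call at 30 min depended on single cultures: it was called in 3 of the 8 fits that left out 1 culture, with differences of 0.31 to 0.54. The call was lost without SSDDCS replicate 1, 2 or 4 or sml1Δ replicate 2 or 3, with an adjusted p of 0.0122 to 0.0579, and with the time point alone (adjusted p = 0.0407). The other 9 members were called in 8 of 8.

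HSP104, HSP26 and HSP42 encode the disaggregase and the small heat shock proteins. HSP104 had 8953, 10849.5, 6839 and 10545 normalised reads at 30 min in SSDDCS, against 2749, 3816, 3191 and 3131 in sml1Δ, a log2 difference of 1.52 ± 0.21 (adjusted p = 7.32e-09). HSP42 had 1759, 2803, 1188 and 2052 in SSDDCS, against 396, 812, 823 and 496 in sml1Δ, a difference of 1.63 ± 0.33 (adjusted p = 4.08e-05). HSP26 had 413, 591, 376 and 630.2 in SSDDCS, against 36.9, 105, 100.2 and 40.9 in sml1Δ, a difference of 2.94 ± 0.68 (adjusted p = 0.000283). Each of these genes was higher in all 4 SSDDCS libraries than in any control library, and HSP26 ranked 12 by this difference among 6404 genes. The call of HSP26 at 45 min was lost in 5 of 8 fits that left out 1 culture, and by DESeq2 and edgeR (adjusted p = 0.0175 and 0.0232). HSP26 is also the member with the widest spread: it had 766, 453, 269 and 125 at 5 min in SSDDCS and 939.6, 86.8, 206 and 38.7 in sml1Δ, and replicate 1 was the highest in both strains. In G1 it had 173, 748, 610.0 and 742 in SSDDCS and 164, 655, 597 and 443 in sml1Δ, replicate 1 being the lowest in both. Replicate 1 is also the deeper-sequenced culture pair, and the part of depth or culture in these values was not tested.

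SIS1, the J-protein gene that directs Ssa proteins to aggregates, differed by a small amount. Its log2 difference was 0.41 in G1, 0.09 at 10 min and 0.18 at 60 min. At 30 min it had 4703, 4590.2, 3969 and 4667 normalised reads in SSDDCS, against 2951, 2879.5, 2516 and 3728 in sml1Δ, a log2 difference of 0.58 ± 0.11 (adjusted p = 2.37e-05). From 20 to 45 min its difference stayed between 0.44 and 0.58 and was called at all 6 time points. Its strains were separate at 10 of the 12 time points, as many as for SSA3, although its difference at 30 min was the smallest of the members after that of HSC82. Its call at 20 min was lost in 3 of 8 fits that left out 1 culture (SSDDCS replicate 1 or 4, sml1Δ replicate 2) and that at 25 min in 1 (sml1Δ replicate 3), with an adjusted p of 0.0109 to 0.0172 and of 0.0118.

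**Figure D4:**
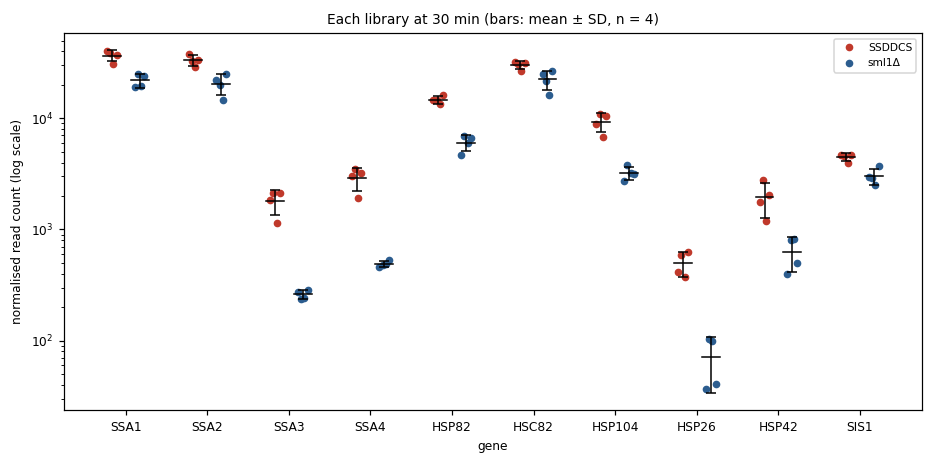
Normalised read count (log axis) of each member in each library at 30 min, SSDDCS (red) left of sml1Δ (blue), with the mean and SD of 4 libraries per strain. Every SSDDCS point lies above every sml1Δ point of the same gene, from HSP26 at the bottom to SSA1 at the top.

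Every SSDDCS library was above every sml1Δ library for 10 of 10 members at 30 min, which held for 19.8% of all genes, and for 7 of 10 members in G1, which held for 1.66% of all genes. The replicate numbers were taken as pairs of cultures from the correlations between them, and no label states such a pairing. With these numbers used as a block, 5 members were called in G1 in place of 1. They were HSP82, SSA1 (adjusted p = 0.00983), SSA2 (0.000955), HSC82 (0.000107) and SIS1 (0.00895). At 60 min 5 were called in place of 3, with SSA2 (adjusted p = 0.00309) and HSC82 (0.00171) added. With an estimated correlation between libraries of one culture in place of the block, HSC82 was the 1 member added in G1 (adjusted p = 0.00316), while SSA1, SSA2 and SIS1 had an adjusted p of 0.0967, 0.0278 and 0.0899, and neither SSA2 nor HSC82 was called at 60 min (adjusted p = 0.0356 and 0.0167). The share of all genes called with the block or the culture correlation was not counted, here or for other counts from those fits. Whether the added calls are particular to the members was therefore not tested. G1 here means cells that had been in galactose for 30 min, so the factors were already over-expressed in the SSDDCS arrest. The members not separate between the strains in G1 were SSA3, HSC82 and HSP26.

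Whether the difference between the strains changed after G1 was asked with an F-test over the 11 later time points. It was called for SSA1, SSA2, SSA3, SSA4, HSP82, HSP104 and HSP42 (7 of 10), beside 22.2% of all genes. For HSC82, HSP26 and SIS1 the adjusted p was 0.128, 0.106 and 0.0195, and with each culture as a block it was 5.49e-05, 0.0107 and 0.000677, so that HSC82 and SIS1 were called there. With the culture correlation it was 0.000164, 0.00846 and 0.000477, and all 10 members were called. The 22.2% of all genes belongs to the fit without a block, and the share was not counted for the block or the culture correlation. In the fit without a block, the count of members was 4 (SSA3, SSA4, HSP82 and HSP104) without SSDDCS replicate 4 and the same 4 genes without sml1Δ replicate 3.

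The later samples of each strain were also compared with its own G1 samples. At 5 min 3 members were called lower in SSDDCS (27.6% of all genes were): SSA1 (-0.68 ± 0.16 on the log2 scale, adjusted p = 0.000231), HSP82 (-0.51 ± 0.16, adjusted p = 0.00447) and HSP104 (-0.79 ± 0.21, adjusted p = 0.000653), each lower in 4 of 4 cultures. The call of SSA1 was lost without SSDDCS replicate 4 (-0.53, adjusted p = 0.0128) and that of HSP82 without SSDDCS replicate 1 or 3 (-0.51 and -0.47, adjusted p = 0.0222 and 0.0314). In sml1Δ 0 were called at 5 min by limma, edgeR or DESeq2 (1 with each culture as a block, HSP42, adjusted p = 0.00835), with 2 at an unadjusted p under 0.05, beside 23.2% of all genes called higher and 25.6% lower. Without sml1Δ replicate 1, the highest control library at 5 min for every member except HSP82, the control count was 2. The strain differences at 5 min were then 0.54 for SSA1 and 0.47 for SSA2, in place of 0.33 and 0.26, neither called. Without sml1Δ replicate 4 they were 0.18 and 0.16.

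At 30 min the 4 members called against G1 in SSDDCS were all higher (27.2% of all genes were): SSA3 by 2.40 ± 0.18 (adjusted p = 9.68e-20), SSA4 by 1.89 ± 0.21 (adjusted p = 4.22e-12), SSA2 by 0.67 ± 0.17 and HSC82 by 0.49 ± 0.14. In sml1Δ, 2 members were called higher at 30 min (25.8% of all genes), SSA2 by 0.55 ± 0.17 and HSC82 by 0.55 ± 0.14, and 2 lower (26.9% of all genes), HSP104 (-0.96 ± 0.21, adjusted p = 5.02e-05) and HSP26 (-2.68 ± 0.68, adjusted p = 0.00048). HSP104 and HSP26 in SSDDCS differed from G1 at 30 min by -0.01 ± 0.21 and -0.00 ± 0.68, neither called. At 30 min SSA3 and SSA4 were thus above their G1 level in SSDDCS, and HSP104 and HSP26 below theirs in sml1Δ. Without sml1Δ replicate 4 the control count at 30 min was 2, SSA2 and HSC82 being no longer called (adjusted p = 0.0535 and 0.0156). SSA2 was also lost there without sml1Δ replicate 2 (adjusted p = 0.0122), and HSC82 in SSDDCS without SSDDCS replicate 4 (adjusted p = 0.0160).

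At 60 min SSA3 was called higher than in G1 in SSDDCS (0.84 ± 0.18, adjusted p = 9.22e-05, 13.6% of all genes called higher), and in sml1Δ its difference was 0.04 ± 0.18. With each culture as a block HSC82 was called too in SSDDCS (adjusted p = 0.000802), making 2. In sml1Δ HSC82 was called higher (0.45 ± 0.14, adjusted p = 0.00721, 9.96% of all genes called higher) and HSP26 lower (-2.22 ± 0.68, adjusted p = 0.00759, 12.2% of all genes called lower). These 2 control calls were close to the limit, and 0 were called without SSDDCS replicate 2, SSDDCS replicate 4, sml1Δ replicate 2, or sml1Δ replicate 4, and 1 without SSDDCS replicate 1, SSDDCS replicate 3 or sml1Δ replicate 3.

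Levels can be compared between genes only per length. At 30 min SSDDCS cells had 19004 ± 2085 normalised reads per kb of SSA1, 17398 ± 1962 of SSA2 and 14218 ± 1095 of HSC82 (SD, n = 4), then 6909.9 ± 549 of HSP82, 4233 ± 326 of SIS1 and 3409 ± 674 of HSP104, and the lowest were 1729 ± 596 of HSP42, 1509 ± 351 of SSA4, 931 ± 237 of SSA3 and 779 ± 197 of HSP26. Neighbours whose ranges of mean ± SD overlapped were SSA1 and SSA2, SIS1 and HSP104, HSP42 and SSA4, SSA4 and SSA3, and SSA3 and HSP26. In sml1Δ cells the highest were 11338 ± 1574 of SSA1, 10667 ± 2311 of SSA2 and 10554 ± 2137 of HSC82, which did not differ beyond their SD, and the lowest 255 ± 15.6 of SSA4, 134 ± 12.8 of SSA3 and 109.5 ± 56.9 of HSP26. The 3 members with the largest differences between the strains were also the 3 lowest in the control. Together the 10 genes took 1.22% ± 0.11 of reads in SSDDCS and 0.683% ± 0.088 in sml1Δ at 30 min (SD, n = 4), and 1.07% ± 0.1 in SSDDCS and 1.02% ± 0.091 in sml1Δ at 10 min.

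HSF1, which encodes the transcription factor that activates these genes, was called at no time point by the limma fit without a block. At 30 min its normalised read count was 993 ± 65.0 in SSDDCS and 879 ± 46.2 in sml1Δ, a log2 difference of 0.18 (adjusted p = 0.0278). With the replicate block HSF1 was called higher at 30 min. The genes of the stress factors moved in opposite directions. MSN4 was 1268 ± 86.2 in SSDDCS and 678 ± 78.7 in sml1Δ at 30 min (0.91, adjusted p = 3.03e-07) and was called higher from 20 to 35 min. MSN2 was 991 ± 96.8 in SSDDCS and 1223 ± 46.8 in sml1Δ (-0.31, adjusted p = 0.00996) and was called lower at 20, 25, 30 and 40 min, although at 30 min neither edgeR nor the fit with the culture correlation called it.

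Other chaperone genes did not move as one group at 30 min, when 16.9% of all genes were called higher and 14.3% lower. Of 6 further heat shock and aggregate-sorting genes, 4 were called higher and 0 lower (0 lower also by edgeR, DESeq2 and at an unadjusted p under 0.05): HSP30, a plasma membrane heat shock protein (2.42), BTN2 (1.36) and CUR1 (1.00), which sort misfolded proteins, and MBF1, a transcriptional coactivator (0.69), which was named after its values were seen. HSP30 had 791 ± 89.4 normalised reads in SSDDCS and 147 ± 16.4 in sml1Δ (adjusted p = 8.06e-14). Of 12 genes of the Hsp70 cycle other than the members, 2 were higher, SSE2, a nucleotide exchange factor of Hsp70 (0.89), and YDJ1, a J-protein (0.47), and 3 lower, the J-protein genes CAJ1 (-0.42) and DJP1 (-0.42) and SNL1 (-0.31). With the replicate block 5 were lower. The median of that list was -0.12, beside -0.04 over all genes.

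Of 9 Hsp90 co-chaperone genes, CPR6, a prolyl isomerase, was called higher (0.39), and its paralogue CPR7 (-0.74) and the phosphatase gene PPT1 (-0.47) lower. CPR7 had 380.2 ± 47.1 normalised reads in SSDDCS and 632 ± 25.4 in sml1Δ (adjusted p = 3.57e-11). Of 8 mitochondrial chaperone genes, ECM10 was higher (0.59) and SSQ1 lower (-0.30), both being mitochondrial Hsp70 genes, and 2 were lower with the replicate block. Of 8 genes of folding in the endoplasmic reticulum 2 were higher, the Hsp70 gene KAR2 (0.52) and the disulfide isomerase gene EUG1 (0.56), and 0 lower, as also by edgeR, DESeq2 and at an unadjusted p under 0.05. Of 14 stress genes known as targets of Msn2 and Msn4, 3 were called higher: ALD3, an aldehyde dehydrogenase gene (1.39), CTT1, the cytosolic catalase (1.24), and XBP1, a stress-induced repressor (1.03). None of the 14 was lower by limma, edgeR, DESeq2 or at an unadjusted p under 0.05, and 5 were higher with the replicate block. Of the 4 regulators, with RPN4, which activates proteasome genes, 1 was called higher and 1 lower. With the replicate block 3 were higher, HSF1, MSN4 and RPN4.

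**Figure D5:**
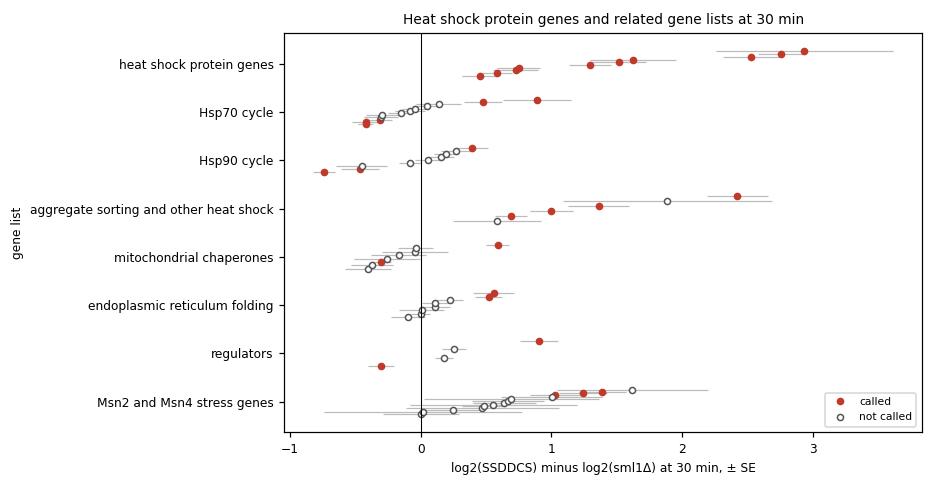
Log2 of SSDDCS minus log2 of sml1Δ at 30 min with its SE for the 10 heat shock protein genes and for the genes of 7 related lists, filled red where the adjusted p was under 0.01. The 10 heat shock protein genes are all filled, between 0.45 and 2.94, and the Hsp70 and Hsp90 cycle genes lie on both sides of 0.

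For each member, the gene outside the set whose 24 group means (strain by time) correlated best with it was found among 6079 genes with a mean of at least 50. HSP42 was nearest to BTN2 (r = 0.94), SSA2 to YDJ1 (r = 0.95), HSP82 to HSP12, a membrane-associated stress protein (r = 0.90), SSA3 to YBR284W (r = 0.99), SSA4 to MPC54, a gene of the meiotic spindle pole body (r = 0.99), HSP104 to STB2 (r = 0.94), HSP26 to NDE2, a mitochondrial NADH dehydrogenase (r = 0.94), HSC82 to ERG27, of ergosterol synthesis (r = 0.92), and SIS1 to MTQ1, a methyltransferase gene (r = 0.92). SSA1 was nearest to YAL004W (r = 1.00), an open reading frame with no position in the annotation used, so whether it shares sequence or position with SSA1 was not tested, and among the 5606 genes with a position to PRR2 (r = 0.89). YBR284W had 476 ± 84.9 normalised reads in SSDDCS and 86.6 ± 18.4 in sml1Δ at 30 min, and MPC54 had 175 ± 30.4 in SSDDCS and 54.1 ± 10.4 in sml1Δ. The 24 means share cultures and time points, so these coefficients are a description.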

How the data were processed

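The authors sequenced RNA, aligned reads to the S. cerevisiae R64 genome (sacCer3), counted reads per gene and deposited a signal of counts divided by DESeq2 size factors. The study's methods name bowtie2 and the submitters' processing notes name TopHat2 2.0.6, and strand use and the handling of reads with several matches are not given in the sources used here. Dividing by the step between low values gave whole reads for 100% of values within 0.0001 in all 94 libraries. In the table, 2 columns matched no sample and were not used. Sequences and coordinates are from R64, to which 5844 of 6444 genes matched by identifier.

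Strains were compared at each time point with limma 3.58.1 in R 4.3.3 (trend, log2(value + 1), 24 group means, all 94 libraries) over 6414 genes with a mean of at least 10, with two-sided p-values adjusted by Benjamini-Hochberg. Counts over all genes leave out the 6 factors and 4 marker genes. The same fit gave the contrasts with G1 and the F-test. On simulated data the fit was tested before use. Same-numbered cultures of the strains deviated together (correlations 0.692, 0.346, 0.324 and 0.205 over genes), so the numbers were taken as pairs, although SSDDCS replicate 4 matched sml1Δ replicate 3 better than its own number. The replicate block used these numbers between strains, and each culture within a strain for the contrasts with G1 and the F-test. Alternatives were pseudocounts of 0.1 and 5, no filter, other scalings, edgeR 4.0.16, DESeq2 1.42.0, blocks, single time points fitted separately, and every culture omitted in turn. The fit without the 16 libraries nearest to another time point was chosen after seeing the data. In the main fit, p-values rest on a spread between cultures pooled over the 24 groups. Libraries of one culture were treated there as independent, although their correlation was estimated at 0.376. The single time points fitted separately use the spread at that time point. Nothing states that the cultures were grown on separate days. The genes and lists were chosen with earlier results of these data known. Named were all 10 genes, the nearest gene to each, the regulators HSF1, MSN2 and MSN4, and of each list the genes called at 30 min with the 3 largest differences of each sign.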

Additional observations from a re-analysis of the deposited data

Results flagged for a closer look

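Of 220 groups of 4 cultures checked over the 10 genes, 17 held 1 library further from the others than Dixon's 95% limit of 0.829 for the gap over the range allows, where chance gives about 1 in 20. Values are normalised read counts. For SSA4, 3 of the 4 such libraries were SSDDCS cultures: SSDDCS replicate 2 in G1 (915, others 711 to 732), SSDDCS replicate 3 at 20 min (1581, others 2459 to 2495), SSDDCS replicate 3 at 35 min (1394, others 2215 to 2378) and sml1Δ replicate 3 at 50 min (467, others 397 to 402). The lower SSA4 values of SSDDCS replicate 3 were still above every sml1Δ library of those times. For SSA3 the libraries were SSDDCS replicate 4 at 60 min (814, others 505 to 558) and sml1Δ replicate 1 at 45 min (299, others 265 to 267). For SSA1 they were sml1Δ replicate 2 at 35 min (19575, others 16706 to 16761) and sml1Δ replicate 1 at 45 min (20276, others 15349 to 16085), and for SSA2 SSDDCS replicate 2 at 15 min (36456, others 31407 to 32138) and sml1Δ replicate 3 in G1 (12108, others 14234 to 14427). For HSC82 they were SSDDCS replicate 2 at 15 min (28492, others 25790.3 to 26197) and SSDDCS replicate 1 at 60 min (31789.7, others 24628 to 25852), and for HSP26 SSDDCS replicate 4 at 50 min (418, others 191 to 223) and SSDDCS replicate 4 at 60 min (464, others 148 to 192). For SIS1 they were SSDDCS replicate 3 at 30 min (3969, others 4590.2 to 4703), sml1Δ replicate 4 at 20 min (4100.0, others 3097 to 3263) and sml1Δ replicate 1 at 45 min (3287, others 2597 to 2685). SSDDCS replicate 4 was the high library at the end of the course for HSP26 and SSA3, and sml1Δ replicate 1 at 45 min for SSA1, SSA3 and SIS1.

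The strain difference after G1 differed from that in G1 by the limma F-test for 7 genes, with an adjusted p of 0.000374 for SSA1, 0.00102 for SSA2, 4.65e-19 for SSA3, 2.12e-13 for SSA4, 4.63e-10 for HSP82, 3.70e-06 for HSP104 and 0.00687 for HSP42.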

How the results depend on the processing

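The count of 63 called comparisons of 120 (10 genes, 12 time points) was 63 to 72 under other pseudocounts, scalings, edgeR, DESeq2, no filter and the replicate block, 48 with each time point fitted alone, 57 without the 16 libraries nearest to another time point, where 1 group keeps a lone library assumed to vary like the others, and 51 to 63 with 1 culture left out. No called difference changed sign. Besides the calls named beside the results, those of SSA1 and SSA2 at 50 min, HSP104 at 45 min, HSP42 at 20, 25 and 45 min, HSP26 at 25 and 40 min and HSC82 at 40, 45 and 50 min were lost with some cultures left out. The 7 genes of the F-test became 4 to 7 with 1 culture left out, 8 with equal library totals, quantile normalization and DESeq2, 9 with the replicate block and 10 with the culture correlation. Genes called at 60 min against G1 in SSDDCS were 2 in place of 1 with equal library totals, quantile normalization, the replicate block or a correlation between libraries of one culture (1 with any culture left out). In sml1Δ they were 1 in place of 2 with quantile normalization, DESeq2 and edgeR, 0 without the 16 libraries, and 0 to 2 with 1 culture left out. At 5 min in sml1Δ the 0 became 1 with the replicate block or the culture correlation and 0 to 2 with 1 culture left out, and at 30 min the 4 became 2 to 4. The replicate block also called SSA2 at 25 min and HSP82 and HSP26 at 20 min (adjusted p = 0.00618, 0.00492 and 0.00532), giving 72 called comparisons. It also called SSA2 at 60 min against G1 in sml1Δ, giving 3 there. At 5 min against G1 in SSDDCS the count was 4 in place of 3 with the replicate block or the culture correlation. The replicate block changed no other call or count of a member than these and those given beside the results.

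Small uncalled strain differences changed sign with 1 culture left out, ranging over -0.00756 to 0.209 (SSA1, 10 min), -0.0384 to 0.122 (SSA1, 15 min), -0.0366 to 0.0591 (SSA2, 15 min), -0.0337 to 0.313 (SSA4, 5 min), -0.0363 to 0.200 (SSA4, 10 min), -0.0250 to 0.213 (HSP82, 5 min), -0.0504 to 0.0858 (HSP82, 10 min), -0.000706 to 0.190 (HSP82, 15 min), -0.00958 to 0.0902 (HSC82, 15 min), -0.140 to 0.174 (HSP104, 5 min), -0.157 to 0.147 (HSP104, 10 min), -0.179 to 0.763 (HSP26, G1), -0.233 to 0.160 (HSP42, 5 min) and -0.149 to 0.204 (HSP42, 10 min). Against G1 the ranges were -0.0118 to 0.0946 (SSA3, sml1Δ, 60 min), -0.0943 to 0.0902 (HSP104, SSDDCS, 30 min) and -0.424 to 0.226 (HSP26, SSDDCS, 30 min). Quantile normalization gave -0.0328 (SSA2, 15 min), -0.0338 (HSP82, 10 min), -0.00986 (HSP104, 5 min), -0.000774 (HSP104, 10 min), -0.0182 (HSP42, 10 min) and 0.00458 (HSP26, SSDDCS, 30 min against G1). Equal library totals gave -0.0112 (HSP104, 5 min), -0.000402 (SSA3, sml1Δ, 60 min against G1), 0.0380 (HSP104, SSDDCS, 30 min against G1) and 0.0438 (HSP26, SSDDCS, 30 min against G1). edgeR gave -6.41e-05 (HSP42, 10 min) and 0.0303 and DESeq2 0.00232 (HSP104, SSDDCS, 30 min against G1). Without the 16 libraries the values were -0.00864 (HSC82, 15 min), 0.129 (HSP104, SSDDCS, 30 min against G1) and 0.123 (HSP26, SSDDCS, 30 min against G1). The cause was not tested. The lowest HSP26 value was 17.4 normalised reads in 1 library, and the part of depth in its spread was not tested.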

Other observations

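The members lie near replication origins as the annotation places them: the median distance from a member to the nearest annotated origin was 3012 bases, and 10056.5 bases over 5844 genes with a position. HSC82 lay 29 bases, HSP104 70 bases and HSP42 344 bases from one, and HSP82 lay 17941 bases away. The largest differences at 30 min belonged to HSP26 (2118 bases), SSA3 (6987 bases) and SSA4 (10953 bases). A relation between distance and strain difference was not tested. With 10 genes chosen by name this is given as a description.

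Within a strain, members did not share 1 course. Over the 12 group means of SSDDCS (log2 scale), HSP82 correlated with SIS1 at 0.59 and with HSP42 at 0.15, and over those of sml1Δ at 0.97 and 0.95. HSP26 and HSP42, both small heat shock protein genes, correlated at -0.38 in SSDDCS and at 0.48 in sml1Δ. Means of a strain come from the same cultures, so these are descriptions.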
